A study of Danio rerio with 4 samples.

Results

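The genes described here encode ion channels and neurotransmitter receptors of the zebrafish brain. A gene belonged to the group if its symbol on the array began with a family prefix of potassium, sodium, calcium, chloride or hyperpolarization-activated channels, of glutamate, GABA, glycine or acetylcholine receptors, or of serotonin, dopamine, adrenergic or opioid receptors. This rule found 53 of the 8793 genes that the array named with 1 symbol, measured by 56 probe sets, and used no measured value. Where a gene had several probe sets, the one whose log2 signal averaged highest over the 4 arrays stood for it. They fell into 15 voltage-gated channel genes, of which 10 encode the pore and 5 an auxiliary subunit, 17 genes of ligand-gated channels, 13 genes of G protein-coupled receptors and 8 genes of other channels. The prefixes for metabotropic glutamate receptors and for intracellular calcium release channels, ryr and itpr, found no gene.

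Voltage-gated channels open with a change in membrane potential and carry the currents that start, shape and end action potentials. Ligand-gated channels open when a transmitter binds and carry fast synaptic excitation, as glutamate and nicotinic receptors do, or fast inhibition, as GABA-A and glycine receptors do. G protein-coupled receptors act more slowly through intracellular messengers, and several of those on this array, such as the alpha-2 adrenergic, dopamine D2-like, mu opioid and muscarinic M2 receptors, are known in mammals to act through inhibitory G proteins.

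The cold-stressed fish were adult zebrafish cooled gradually and then held at 10°C for 10 days, and the normal fish were adults kept at 28°C. Males and females were equal in number in each group. No strain, allele or other agent is named for either group. Brain RNA was hybridized to Affymetrix Zebrafish Genome Arrays, on which biotin-labelled RNA of 1 sample binds short probes and the brightness of each probe set, its signal, is read in arbitrary units. There were 2 arrays labelled cold-stressed and 2 labelled normal, each with RNA pooled from several brains, so fish within a pool cannot be told apart, and a p-value measures only the spread between these pools, which may be technical. The study's results section states that the sets of RNA came from fish acclimated in separate experiments. Not all of these are analysed here, and no source ties an array to its experiment. With the meaning of the number in the array titles not given in the sources used here, arrays that share the number 1 or 2 are called set 1 and set 2.

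The arrays had median signals of 100.4 and 98.7 for cold-stressed and 95.9 and 102 for normal. The arrays did not order by their labels. Over the 9301 probe sets above the filter on low signal, log2 signals correlated most between cold-stressed 1 and normal 2 (r = 0.957), and least between normal 1 and normal 2 (r = 0.882), with r = 0.902 between cold-stressed 1 and cold-stressed 2. The labels were kept, no array was regrouped, and all directions below are those of the labels. Whether any arrays carry each other's labels was not tested, and an exchange within a set would turn the sign of that set's ratios. All 8 neuron markers on the array, such as the synaptic genes snap25a and syt1a, were above the filter, as were all 6 markers of radial glia and all 3 of myelin, and none of these markers of brain tissue was listed at 0. Red blood cell markers had a median log2 ratio of cold-stressed over normal of 1.19 in set 1 and -1.43 in set 2 (5 of 5 above the filter, summed signals of 19478 and 11959 on the cold-stressed arrays, against 13708 and 20699 on the normal arrays). Of the skeletal muscle markers, 8 of 9 were above the filter. At least 2-fold higher on cold-stressed 1 than on normal 1 were 5 of these 8 (8.79% of all probe sets were). The filter averages the 4 arrays, so a marker high on cold-stressed 1 alone could pass it through that array. For example, pvalb1 had signals of 475 on cold-stressed 1 and 76.0 on cold-stressed 2, against 31.8 on normal 1 and 49.9 on normal 2. In a whole brain, fewer cells of a type and less RNA per cell cannot be told apart in any of these values.

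The labelled comparison asks which transcripts of the brain differ after cold acclimation. Of the 53 channel and receptor genes, 32 passed the filter, which asked for an average log2 signal in the upper range of all probe sets from the 40th percentile up (a signal of 74.5), and 21 lay below it. None of the 32 passed the test between the cold-stressed and the normal brains. In limma's moderated test with Benjamini-Hochberg adjustment over all 9301 probe sets, 0 of the 32 were higher (0% of all probe sets) and 0 were lower (0% of all probe sets) at an adjusted p under 0.05, and each had an adjusted p of 0.99997. At an unadjusted p under 0.05 limma placed 0 of the 32 genes, beside 18 higher and 28 lower probe sets of all, and a SAM-type statistic called 0. Their fitted log2 differences, cold-stressed minus normal, lay between -0.73 and 0.42 with a median of 0.03, against a median of 0.04 over all probe sets. The standard errors ran from 0.26 to 0.60 on the log2 scale, so a p above the threshold does not show that the conditions were alike. For 20 of 28 genes named by a rule on signal, ratio and p, the sign of the fitted difference turned when 1 of the 4 arrays was left out.

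**Figure D1:**
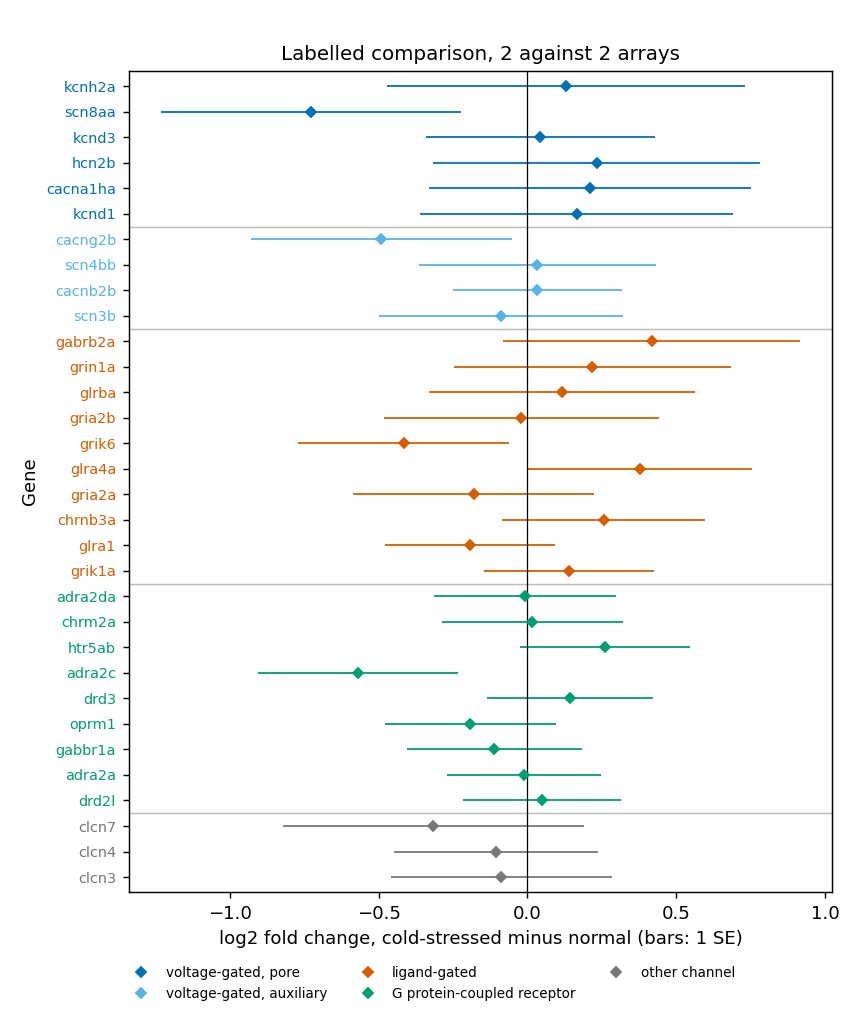
Fitted log2 difference of cold-stressed minus normal (x axis, bars 1 SE from limma, 2 arrays per condition) for the 32 channel and receptor genes above the filter (y axis, coloured by class). All values lie between -0.73 (scn8aa) and 0.42 (gabrb2a), and none passed the adjusted threshold.

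In 6 of the 32 genes the 2 cold-stressed arrays lay wholly on one side of the 2 normal arrays. Both cold-stressed arrays were higher in 2 genes, where 9.2% of all probe sets had this order, and lower in 4 genes, where 6.45% of all had it. The 2 higher genes were htr5ab and drd3, and the 4 lower genes were adra2c, scn8aa, grik6 and glra1. The gene ranked first by limma was adra2c, an alpha-2 adrenergic receptor, a class that restrains noradrenaline release (adjusted p = 0.99997 in limma, where it was 0.135 before adjustment).

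The 2 sets of arrays ran in opposite directions in many of these genes. On set 1, that is cold-stressed 1 over normal 1, 4 of the 32 genes were at least 2-fold higher (8.79% of all probe sets were) and 2 were at least 2-fold lower (5.13% of all). On set 2, that is cold-stressed 2 over normal 2, 0 were at least 2-fold higher (2.23% of all) and 2 were at least 2-fold lower (4% of all). In 13 genes the ratio was above 1 in set 1 and below 1 in set 2 (36.8% of all probe sets), in 7 genes it was the reverse (32.8% of all), in 5 genes both sets were higher in cold-stressed (17.4% of all) and in 7 both were lower (13% of all). Across the 32 genes the log2 ratios of set 1 and set 2 had Pearson's r of -0.57, against -0.63 across all 9301 probe sets. These are descriptions across genes on the same 4 arrays, and genes are not independent replicates.

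**Figure D2:**
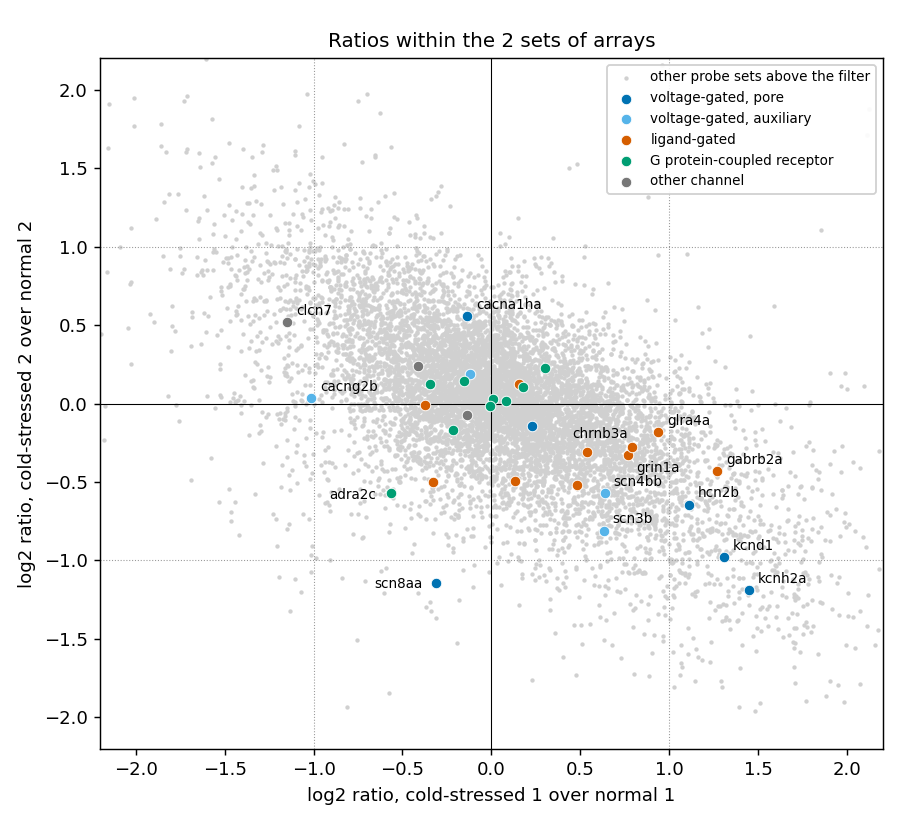
Log2 ratio of cold-stressed 1 over normal 1 (x axis) against that of cold-stressed 2 over normal 2 (y axis) for the 32 channel and receptor genes (coloured by class) and the other probe sets above the filter (grey, 104 lie outside the axes), with dotted lines at 2-fold. kcnh2a, kcnd1, hcn2b and gabrb2a lie at lower right, higher in set 1 and lower in set 2, clcn7 lies at upper left, and the green G protein-coupled receptors lie near the centre apart from adra2c.

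Of the 32 genes, the voltage-gated kcnh2a had the largest ratio in each set, in opposite directions. This pore-forming gene encodes an ether-a-go-go-related potassium channel, which in mammals repolarizes the membrane after an action potential. Its signals were 2860.4 on cold-stressed 1 and 1403 on cold-stressed 2, against 1048 on normal 1 and 3201 on normal 2. Each set thus had 1 high and 1 low array, and the high arrays, cold-stressed 1 and normal 2, carried different labels. kcnh2a was the one member at least 2-fold apart in both sets, with log2 ratios of 1.45 in set 1 and -1.19 in set 2, a pattern that 2.62% of all probe sets shared, and its fitted log2 difference was 0.13 ± 0.60 (SE).

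The pore-forming genes kcnd1 and hcn2b had their arrays in the same order. kcnd1 encodes a Kv4 channel of the rapidly inactivating A-type potassium current and had signals of 145 on cold-stressed 1 and 79.1 on cold-stressed 2, against 58.4 on normal 1 and 156 on normal 2. hcn2b encodes a hyperpolarization-activated cation channel, which sets pacemaker currents, and had signals of 133 on cold-stressed 1 and 130.1 on cold-stressed 2, against 61.7 on normal 1 and 203 on normal 2. For both genes normal 1 was the lowest array and normal 2 the highest, and the cold-stressed arrays lay between them. Their log2 ratios were 1.31 in set 1 and -0.98 in set 2 for kcnd1, and 1.11 and -0.64 for hcn2b. The second Kv4 gene, kcnd3, had signals of 316 on cold-stressed 1 and 306 on cold-stressed 2, against 269 on normal 1 and 338 on normal 2, a far narrower range with the same lowest and highest array (log2 ratios 0.23 in set 1 and -0.14 in set 2).

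scn8aa encodes the Nav1.6 sodium channel, known in mammals as a main sodium channel of the axon initial segment and of nodes of Ranvier. Its signals were 441 on cold-stressed 1 and 546 on cold-stressed 2, against 547 on normal 1 and 1207 on normal 2. The cold-stressed arrays were both below the normal arrays, but cold-stressed 2 and normal 1 were 1 unit apart, and normal 2 stood alone as the high array. Its log2 ratios were -0.31 for set 1 and -1.14 for set 2, and the fitted log2 difference of -0.73 ± 0.50 (SE) was the most negative of the 32, with an adjusted p of 0.99997 in limma. cacna1ha, a T-type calcium channel that opens near rest, had signals of 75.1 on cold-stressed 1 and 211 on cold-stressed 2, against 82.6 on normal 1 and 143 on normal 2. Here both arrays numbered 2 lay above both arrays numbered 1, whatever their label, and the fitted difference was 0.21 ± 0.54 (SE).

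Among the auxiliary subunits, cacng2b had signals of 352 on cold-stressed 1 and 522 on cold-stressed 2, against 712 on normal 1 and 509.6 on normal 2. This gene is named for calcium channels, but its mammalian counterpart stargazin is best known for carrying AMPA receptors to the synapse. It was at least 2-fold lower in set 1 (log2 ratio -1.01), with normal 1 the high array, while the arrays of set 2 were nearly equal (log2 ratio 0.03). The sodium channel beta subunit scn3b had signals of 104 on cold-stressed 1 and 82.6 on cold-stressed 2, against 67.4 on normal 1 and 145 on normal 2. The related scn4bb had signals of 211 on cold-stressed 1 and 120.5 on cold-stressed 2, against 136 on normal 1 and 179 on normal 2. Both beta subunit genes were higher on cold-stressed 1 than on normal 1 and lower on cold-stressed 2 than on normal 2, with log2 ratios of 0.63 and -0.81 for scn3b and of 0.64 and -0.57 for scn4bb. The calcium channel beta subunit cacnb2b stayed between 106 and 122, both of them cold-stressed arrays.

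Over the 10 voltage-gated genes above the filter, log2 ratios had a median of 0.43 for set 1 and -0.61 for set 2, against 0.06 and 0.00 over all probe sets. In set 1, 6 of the 10 were higher on the cold-stressed array and in set 2 it was 3 of 10. Of all 9301 probe sets, 5041 were higher in set 1 and 4666 in set 2. Across the labels the median of the 10 genes was 0.04. The sign of the set 1 median turned without a filter (-0.029 in set 1 and -0.10 in set 2 over 15 genes) and with the clcn and kcnn genes counted in the class (-0.12 and -0.14). Among the 6 pore-forming genes normal 2 was the highest array in 5, and normal 1 was the lowest in 4. Of all 9301 probe sets, normal 2 was the highest in 2043 and normal 1 the lowest in 3282.

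**Figure D3:**
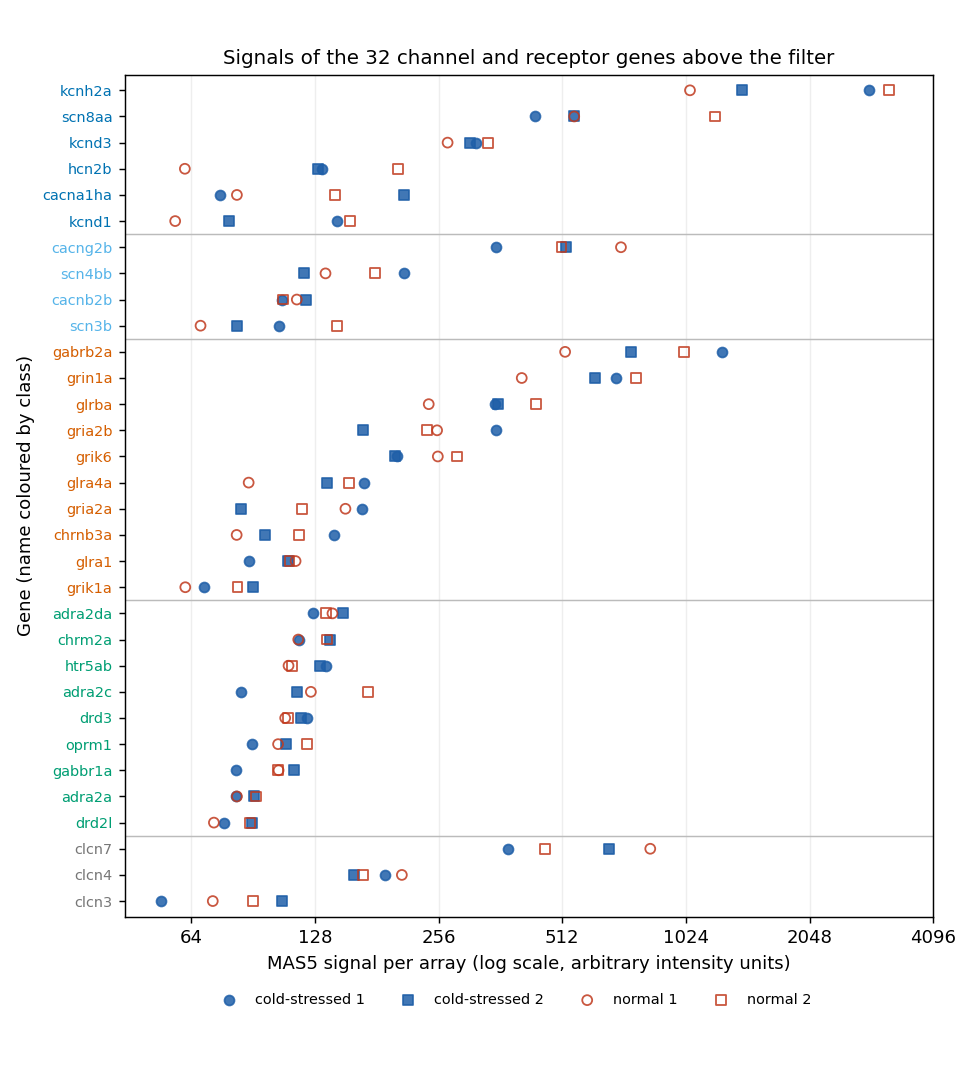
Signal on each array (x axis, log scale, arbitrary intensity units) for the 32 channel and receptor genes above the filter (y axis, ordered by class and mean signal), with filled blue symbols for the cold-stressed and open red symbols for the normal arrays, circles for number 1 and squares for number 2. The open square and open circle stand at opposite ends for kcnh2a, hcn2b and kcnd1, while the symbols of htr5ab and drd3 lie close together with both filled symbols to the right.

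Among the ligand-gated channels, gabrb2a, glra4a, glrba and grin1a were higher on cold-stressed 1 than on normal 1 and lower on cold-stressed 2 than on normal 2, while grik6 and glra1 were lower on the cold-stressed array of both sets. gabrb2a encodes the beta2 subunit of the GABA-A receptor, the main fast inhibitory receptor of the brain. Its signals were 1252 on cold-stressed 1 and 751 on cold-stressed 2, against 520.2 on normal 1 and 1013 on normal 2. At the probe set chosen for each gene, it was the one ligand-gated gene at least 2-fold higher in set 1 (log2 ratio 1.27). The second probe set of grin1a was also at least 2-fold higher there (log2 ratio 1.16). In set 2 the ratio of gabrb2a was -0.43 on the log2 scale. Its fitted log2 difference of 0.42 ± 0.50 (SE) was the most positive of the 32, and the labels overlapped, since normal 2 lay above cold-stressed 2.

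Among the glycine receptor genes, which serve inhibition in hindbrain and spinal cord, glra4a had signals of 169 on cold-stressed 1 and 137 on cold-stressed 2, against 88.2 on normal 1 and 155 on normal 2. glrba, whose product anchors the receptor to the postsynaptic scaffold, had signals of 352 on cold-stressed 1 and 357 on cold-stressed 2, against 242 on normal 1 and 442 on normal 2. In both, normal 1 was the lowest array and the remaining arrays lay closer together. glra1, the alpha subunit of the adult receptor in mammals, had signals of 88.5 on cold-stressed 1 and 110.2 on cold-stressed 2, against 114.8 on normal 1 and 110.9 on normal 2. Its cold-stressed arrays were thus both lower, by less than 1 unit between cold-stressed 2 and normal 2, and the fitted difference was -0.19 ± 0.28 (SE).

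grin1a encodes GluN1, the subunit that every NMDA receptor contains. Its signals were 694 on cold-stressed 1 and 616 on cold-stressed 2, against 408 on normal 1 and 775 on normal 2. Normal 1 was again the low array, with log2 ratios of 0.77 in set 1 and -0.33 in set 2. The AMPA receptor gene gria2b, for the GluA2 subunit that limits calcium entry, had signals of 354 on cold-stressed 1 and 168 on cold-stressed 2, against 254 on normal 1 and 240.4 on normal 2. Here the cold-stressed arrays stood at the 2 extremes, more than 2-fold apart from each other, with both normal arrays between them. Its duplicate gria2a had signals of 166 on cold-stressed 1 and 84.5 on cold-stressed 2, against 152 on normal 1 and 119 on normal 2, in the same order of sets (log2 ratios 0.13 in set 1 and -0.49 in set 2).

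grik6, a kainate-type glutamate receptor gene, had signals of 203 on cold-stressed 1 and 200.4 on cold-stressed 2, against 255 on normal 1 and 284 on normal 2. Both cold-stressed arrays were lower and close to each other, and the fitted log2 difference was -0.42 ± 0.35 (SE), with log2 ratios of -0.33 in set 1 and -0.50 in set 2. Its adjusted p in limma was 0.99997. The second kainate receptor gene, grik1a, was between 61.8 and 90.5, with the normal array below its cold-stressed partner in each set by small log2 ratios of 0.15 and 0.13. chrnb3a, a neuronal nicotinic acetylcholine receptor subunit, had signals of 143 on cold-stressed 1 and 96.6 on cold-stressed 2, against 82.5 on normal 1 and 117 on normal 2, with overlap between the labels.

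Over the 10 ligand-gated genes above the filter, 8 were higher on cold-stressed 1 than on normal 1 and 1 was higher on cold-stressed 2 than on normal 2. Of all 9301 probe sets, 5041 were higher in set 1 and 4666 in set 2. The log2 ratios of the 10 genes had a median of 0.51 for set 1 and -0.32 for set 2, and 0.13 across the labels. Neuron markers had ratios of the same signs. Of the 8, 7 were higher in set 1 and lower in set 2, with medians of 0.44 and -0.28 and summed signals of 28104 and 22089 on the cold-stressed arrays, against 20702 and 25785 on the normal arrays. Red blood cell markers also had these signs, with medians of 1.19 and -1.43, and microglia and leukocyte markers the reverse, with -0.24 and 0.33. Of all probe sets, 36.8% were higher in set 1 and lower in set 2. The part of the neuron content of the pools in the channel and receptor ratios was not tested.

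The signals of G protein-coupled receptor genes differed little within the sets. All 9 genes above the filter stayed under 2-fold in both sets, with log2 ratios from -0.56 to 0.30 in set 1 and from -0.57 to 0.23 in set 2. Their mean log2 signals lay between percentiles 43.3 and 59.5 of all probe sets. How much of these signals is probe background was not tested. The receptor gene with the lowest ratio in each set was adra2c, with signals of 84.5 on cold-stressed 1 and 116 on cold-stressed 2, against 125 on normal 1 and 172 on normal 2. Both cold-stressed arrays were lower than both normal arrays, and the log2 ratio was nearly the same in the 2 sets, -0.56 and -0.57. The fitted log2 difference was -0.57 ± 0.33 (SE). The other alpha-2 receptor genes above the filter did not share this: adra2da had signals of 127 on cold-stressed 1 and 149.9 on cold-stressed 2, against 141 on normal 1 and 136 on normal 2, and adra2a had 82.1 on cold-stressed 1 and 90.9 on cold-stressed 2, against 82.6 on normal 1 and 91.9 on normal 2. The arrays of both genes overlapped between the labels.

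htr5ab, a serotonin receptor gene, had signals of 136 on cold-stressed 1 and 132 on cold-stressed 2, against 110.3 on normal 1 and 113 on normal 2. drd3, a dopamine receptor of the D2-like class, had signals of 123 on cold-stressed 1 and 119 on cold-stressed 2, against 108 on normal 1 and 110.1 on normal 2. In both genes the 2 cold-stressed arrays lay close together above the 2 normal arrays, which also lay close together. The fitted log2 differences were 0.26 ± 0.29 for htr5ab and 0.14 ± 0.28 for drd3 (SE), each smaller than its standard error. The standard error comes from a spread that limma draws in part from all probe sets, and here it was wider than the spread of these genes' own arrays.

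The mu opioid receptor gene oprm1, the receptor for endorphins and morphine, had signals of 89.7 on cold-stressed 1 and 109 on cold-stressed 2, against 104 on normal 1 and 122 on normal 2. It was lower on the cold-stressed array of each set, but normal 1 lay below cold-stressed 2. chrm2a, the muscarinic acetylcholine receptor M2, had signals of 117 on cold-stressed 1 and 139 on cold-stressed 2, against 116 on normal 1 and 137 on normal 2, which matched within each set (log2 ratios 0.01 and 0.03) and were higher in set 2 under both labels. drd2l, a D2 dopamine receptor gene, likewise had log2 ratios of 0.08 in set 1 and 0.02 in set 2. gabbr1a, a subunit of the GABA-B receptor for slow inhibition, had signals of 82.0 on cold-stressed 1 and 114 on cold-stressed 2, against 104 on normal 1 and 104 on normal 2, with cold-stressed arrays on both sides of nearly equal normal arrays.

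Set side by side, the 3 classes differed in how far their genes stood apart within a set, without a test of the difference. The median absolute log2 ratio came to 0.63 for set 1 and 0.61 for set 2 in voltage-gated channels, 0.51 and 0.32 in ligand-gated channels, and 0.18 and 0.13 in G protein-coupled receptors, against 0.40 and 0.29 over all probe sets. The median signed log2 ratio of the G protein-coupled receptors was -0.01 in set 1 and 0.03 in set 2. Ratios above 1 in set 1 and below 1 in set 2 were found in 6 of 10 voltage-gated, 7 of 10 ligand-gated and 0 of 9 G protein-coupled receptor genes, where 36.8% of all probe sets had them. Of the 9 receptors, 4 were higher in cold-stressed in both sets (17.4% of all) and 3 were lower in both (13% of all). Some of these ratios lay so near 0 that their signs are uncertain. The log2 ratios in set 1 and set 2 were 0.01 and 0.03 for chrm2a, and -0.01 and -0.02 for adra2a. The classes also differed in signal. By mean log2 signal the 9 receptors lay between percentiles 43.3 (drd2l) and 59.5 (adra2da) of all probe sets. The channels reached 96.9 (kcnh2a) and 91.6 (gabrb2a), and some lay within the receptors' range, with large and small ratios. Among these were kcnd1 at 50.3 and hcn2b at 55.8, with log2 ratios of 1.31 and 1.11 in set 1. Others were cacnb2b at 53.7 and glra1 at 51.6, with -0.12 and -0.38. Whether the smaller ratios of the receptors go with their signal was not tested. All G protein-coupled receptors above the filter but chrm2a and oprm1 had probe sets with names starting in DrAffx. None of the channels above it did. Class and kind of probe set thus largely coincided, and their parts in the ratios were not tested.

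**Figure D4:**
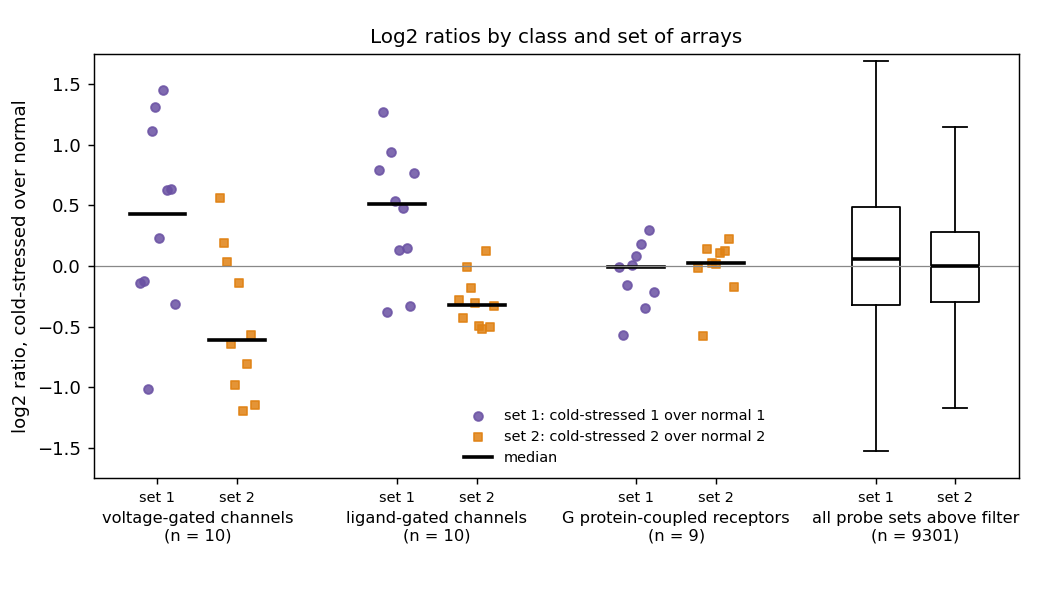
Log2 ratio of cold-stressed over normal (y axis) within set 1 (circles) and set 2 (squares) for the genes of each class above the filter, each point a gene and the black bar the median, beside boxes for all 9301 probe sets (median, quartiles and whiskers to the last value within 1.5 times the interquartile range). The medians of voltage-gated channels (0.43 and -0.61) and ligand-gated channels (0.51 and -0.32) are, above the filter, over 0 in set 1 and under 0 in set 2, and the receptors gather around 0.

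The 3 other channel genes above the filter, clcn3, clcn4 and clcn7, belong to the CLC family, and in mammals their products are chloride-proton exchangers of endosomes and lysosomes rather than channels of the cell surface. The lysosomal clcn7 had signals of 378 on cold-stressed 1 and 666 on cold-stressed 2, against 839 on normal 1 and 465 on normal 2. It ran opposite to kcnh2a, with a log2 ratio of -1.15 in set 1, at least 2-fold lower, and 0.52 in set 2, and its labels overlapped. clcn3 had signals of 54.1 on cold-stressed 1 and 107 on cold-stressed 2, against 72.1 on normal 1 and 90.2 on normal 2, also lower in set 1 and higher in set 2. clcn4 was lower on the cold-stressed array of both sets by small log2 ratios (-0.14 and -0.07).

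The median absolute log2 difference of the 32 genes was 0.31 between the cold-stressed arrays and 0.37 between the normal arrays, against 0.26 to 0.36 between arrays of different labels. Normal 1 and normal 2 stood at least 2-fold apart in 5 of the 32 genes (15.2% of all probe sets), namely hcn2b, kcnd1, kcnh2a, scn3b and scn8aa. All 5 were voltage-gated and lower on normal 1, but the limit to this class depends on the cutoff and the probe set chosen. The log2 difference normal 1 minus normal 2 was -1.65 at the second probe set of the ligand-gated grin1a and -0.96 for gabrb2a. The share of all probe sets 2-fold lower on normal 1 was not counted. Cold-stressed 1 and cold-stressed 2 stood at least 2-fold apart in 3 genes (11.9% of all), namely cacna1ha, gria2b and kcnh2a. Between arrays of different label and different number, cold-stressed 1 and normal 2 stood 2-fold apart in 2 genes, adra2c and scn8aa (2.8% of all), and cold-stressed 2 and normal 1 in 2 genes, cacna1ha and hcn2b (7.26% of all). Normal 1 was the lowest array in 15 of the 32 genes and normal 2 in 0, while normal 2 was the highest in 12. Over all 9301 probe sets normal 1 was the lowest in 3282 and normal 2 in 1958, while normal 2 was the highest in 2043.

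The 21 genes below the filter had signals from 19.2 to 73.0, a range in which a probe set's brightness may not come from its transcript, and they were not tested. The voltage-gated ones were the pore genes cacna1c, kcnb2a, kcnh6a and scn1laa and the auxiliary gene cacng1a. The ligand-gated ones were chrna1, chrna7a, chrnb3b, chrne, gabrr2b, glra3 and glra4b, the receptors were adra2b, adra2db, drd2a and drd2b, and the other channels were clcn2c, clcnk, kcnk1b, kcnk5a and kcnn1b. Among them were 3 genes of skeletal muscle and its nerve contacts. chrna1, a muscle acetylcholine receptor subunit, had signals of 27.5 on cold-stressed 1 and 32.1 on cold-stressed 2, against 32.05 on normal 1 and 25.7 on normal 2. chrne, the adult muscle subunit in mammals, had 58.2 on cold-stressed 1 and 58.5 on cold-stressed 2, against 67.5 on normal 1 and 65.9 on normal 2, and the muscle calcium channel subunit cacng1a had 25.7 on cold-stressed 1 and 22.8 on cold-stressed 2, against 26.2 on normal 1 and 23.8 on normal 2. None of the 3 was high on cold-stressed 1, the array on which the summed signal of the 9 muscle markers on the array was 5088, beside 1528 on cold-stressed 2, and 1421 and 1431 on the normal arrays. At signals below the filter a rise of these 3 transcripts could be missed, so the contrast carries no conclusion.

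Of the 53 genes, 3 had a second probe set. For grin1a it gave signals of 465 on cold-stressed 1 and 387 on cold-stressed 2, against 209 on normal 1 and 657 on normal 2, with the same signs as the first and wider log2 ratios, 1.16 in set 1 and -0.76 in set 2. For glra4a the second probe set lay below the filter and had the same signs with a log2 ratio of 0.33 in set 1, against 0.94 at the first. The probe sets of adra2b, both below the filter, disagreed in sign, with log2 ratios in set 1 of 0.08 and -0.64, the second being of a design that can share sequence with other transcripts. Zebrafish carry many genes in duplicate. Of the duplicates with both copies in the group, gria2a and gria2b were both above the filter, while adra2db, chrnb3b and glra4b lay below it and their partners adra2da, chrnb3a and glra4a above it, and drd2a and drd2b were both below. Values of duplicates are uncertain, with the cross-hybridization of their probes not given in the sources used here.

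Genes that work with these channels and receptors were listed by symbol. The prefixes for kinases also took in prkcbp1l, by its name a binding protein and not a kinase, which the counts below include. Of 58 listed genes on the array, 40 were above the filter, and limma called 0 of them (0% of all probe sets). In set 1, 6 were at least 2-fold higher (8.79% of all) and 0 lower (5.13% of all), and in set 2, 0 were higher (2.23% of all) and 2 lower (4% of all). Their log2 ratios had medians of 0.35 for set 1 and -0.12 for set 2. The 16 G protein subunits, which relay the receptors' signal, had medians of 0.33 and -0.31, the 7 regulators such as RGS proteins and arrestins 0.34 and -0.25, and the 12 scaffold and anchor genes 0.44 and -0.01. Within the first group, gnao1a, the main G protein alpha subunit of neurons, had signals of 2976 on cold-stressed 1 and 2947 on cold-stressed 2, against 1926 on normal 1 and 3213 on normal 2, with normal 1 as the low array, as for grin1a and gabrb2a. Of the 16 subunits, 9 were, like gnao1a, higher in set 1 and lower in set 2 (36.8% of all probe sets). The reverse held for 4 (32.8% of all), and 1 was higher in both sets (17.4% of all). The remaining 2, gnb1a and gnb1b, were lower in both (13% of all).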

How the data were processed

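Adult zebrafish brains were profiled on 1-colour arrays, with RNA pooled from several brains per array. Per the study's methods, the authors scanned the arrays, analysed them with the Gene Chip Operating Software and deposited 1 linear signal (intensity) per probe set, made with MAS5 according to the submitters' processing notes. Its version and scaling target were not given in the sources used here. Global scaling hides a shift shared by most transcripts. Every sample column was used. Samples were grouped by their treatment label, and the number 1 or 2 comes from the titles.

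Control probe sets were removed, which left 15502 of 15617. Signals were taken to log2 and were not scaled further. Probe sets whose average log2 signal reached the 40th percentile, 9301 in all, entered limma 3.58.1, run in R 4.3.3 (lmFit and eBayes with a variance trend, unpaired, Benjamini-Hochberg over all tested probe sets, threshold 0.05). limma was checked on simulated data. Ratios within a set compare 1 array with 1 array, so they carry no p. As arrays have no read depth, precision is limited by their number.

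Symbols came from the platform annotation (10795 probe sets with 1 symbol, 135 with several and 4572 with none), and all 53 matched a current gene table. The classes were formed by symbol prefix. The genes described by name were, in each class, up to 6 with the highest mean signal, the genes at least 2-fold apart in both sets, up to 6 per set and direction with the largest ratio, and the 10 with the smallest p, to which duplicates of a named gene, genes below the filter and grik1a, adra2a and drd2l were added after values were seen. The members, lists, classes and tests were chosen with earlier results of these data known. As alternatives, values were quantile normalized, centred on their medians or taken as log2 after adding 16, the filter was dropped or moved up to the 60th percentile, probe sets of a gene were averaged, the voltage-gated class was widened by the clcn and kcnn genes, limma was run without the trend or with the replicate number as a block, a SAM-type statistic was used at a false discovery rate of 5% over the 6 relabellings, and each array was left out in turn, with the remaining array of its label taken to vary like the others. A crossed pairing was added after seeing the data.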

Additional observations from a re-analysis of the deposited data

Results flagged for a closer look

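In 6 genes the arrays of set 1 and set 2 moved in opposite directions, with at least 2-fold in 1 of the sets or, for kcnh2a, in both. The difference between the sets was not tested, since each holds 1 array per condition. The log2 ratio of cold-stressed over normal in set 1 minus that in set 2 was 2.64 for kcnh2a, 2.29 for kcnd1, 1.76 for hcn2b and 1.70 for gabrb2a, each higher in set 1 and lower in set 2. It was -1.67 for clcn7 and -1.05 for cacng2b, each lower in set 1 and higher in set 2. For cacng2b the ratio in set 2 was 0.03 on the log2 scale, so that the opposite direction there rests on nearly equal arrays. Over all 9301 probe sets 36.8% were higher in set 1 and lower in set 2 and 32.8% the reverse, by any amount. At least 2-fold apart in either direction were 13.9% of all in set 1 and 6.23% in set 2. The share of all that was both opposite and at least 2-fold apart in a set was not counted.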

How the results depend on the processing

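Under each of the alternatives (other normalizations, pseudocount, filters, no variance trend, SAM and each array left out) 0 of the tested channel and receptor genes and 0 probe sets in all were called. With the replicate number as a block 0 probe sets were called as well. The log2 differences normal 1 minus normal 2 and cold-stressed 1 minus cold-stressed 2 had Pearson's r of -0.30 over all probe sets. Whether the numbers pair the arrays was not tested. The crossed pairing, chosen after seeing the data, called 1 probe set, which measures none of these genes. Without normal 1 the unadjusted limma p fell below 0.05 for scn8aa (0.039) and without normal 2 for hcn2b (0.023), while the smallest adjusted p among these genes was 0.999997 and 0.998 in those 2 runs of limma. The fitted log2 difference kept its sign without each array for 8 of 28 genes, namely adra2c, cacng2b, drd3, glra1, grik6, htr5ab, oprm1 and scn8aa. For the other 20 it changed sign, over ranges of -0.13 to 0.11 for adra2da, -0.53 to 0.96 for cacna1ha, -0.064 to 0.13 for cacnb2b, -0.11 to 0.14 for chrm2a, -0.025 to 0.54 for chrnb3a, -0.58 to 0.40 for clcn3, -0.26 to 0.052 for clcn4, -0.74 to 0.11 for clcn7, -0.35 to 0.12 for gabbr1a, -0.063 to 0.90 for gabrb2a, -0.029 to 0.79 for glra4a, -0.32 to 0.55 for glrba, -0.56 to 0.52 for gria2b, -0.24 to 0.68 for grin1a, -0.63 to 1.09 for hcn2b, -0.54 to 0.87 for kcnd1, -0.12 to 0.21 for kcnd3, -0.68 to 0.93 for kcnh2a, -0.64 to 0.46 for scn3b and -0.37 to 0.44 for scn4bb. Under quantile normalization chrm2a came to -0.021 and scn4bb to -0.015. The median log2 ratio of the G protein-coupled receptors in set 1 and set 2 was -0.086 and 0.058 with quantile normalization, -0.072 and 0.067 with median centring and -0.15 and 0.085 without a filter, and with the filter at the 60th percentile no such receptor was left. For the voltage-gated channels it was -0.029 and -0.10 without a filter, 0.23 and -0.57 at the 60th percentile and -0.12 and -0.14 with the clcn and kcnn genes in the class, where 2 genes were at least 2-fold lower in set 1. For the ligand-gated channels it was 0.12 and -0.18 without a filter and 0.54 and -0.43 at the 60th percentile. The median of all channel and receptor genes was -0.12 in set 1 without a filter, and 0.35 and -0.38 in set 1 and set 2 at the 60th percentile. At that percentile 12 genes were tested, 0 had both cold-stressed arrays higher, 2 had both lower and 2 were at least 2-fold higher in set 1. Without a filter 7 genes had both cold-stressed arrays lower, and with quantile normalization or median centring 3 genes did, in place of 4. With log2 of the signal plus 16, 1 gene was at least 2-fold lower in set 1. Signals near the filter of 74.5 limit what can be said of genes close to it, such as clcn3, drd2l and grik1a.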
